A study of Mus musculus with 6 samples.

Results

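Coenzyme Q and dolichol are long isoprenoid lipids that are built from the same precursors as cholesterol. Their synthesis was followed here through 9 genes, of 24421 in the deposited count table, taken by symbol from a list of pathway genes, with no threshold on a measured value: Pdss1, Pdss2, Coq2, Coq3, Coq5, Coq7 and Coq9 for coenzyme Q, and Dhdds and Nus1 for dolichol. RNA was sequenced in bulk from Foxp3-expressing regulatory T cells (Tregs) of mouse spleen and lymph nodes. Srebp2cKO animals (genotype Srebp2FL/FL-Foxp3YFPCRE+/-, replicates 6, 7 and 8) carried floxed alleles of Srebf2, the gene for SREBP2. Srebp2WT animals (Srebp2WT/WT-Foxp3YFPCRE+/+, replicates 1, 3 and 5) carried the same Cre and yellow fluorescent protein at Foxp3 without floxed alleles. Both genotypes thus held the Cre, labelled +/- in Srebp2cKO and +/+ in Srebp2WT. Cre was driven from the X-linked Foxp3 gene, and so is made by cells that express that allele. The labels do not state whether the 3 libraries within a genotype represent separate animals, and the p-values below cover the spread among these libraries alone, which may be technical.

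In the mevalonate pathway, cells make farnesyl and geranylgeranyl pyrophosphate, which feed several branches. One branch leads through squalene to cholesterol, and others lead to prenylated proteins, to the side chain of coenzyme Q and to dolichol. Coenzyme Q, or ubiquinone, carries electrons in the inner mitochondrial membrane, and dolichol is the lipid on which the sugar chain for N-glycosylation is assembled in the endoplasmic reticulum. SREBP2 is known as the activator of cholesterol synthesis and uptake genes. The genotypes are compared below for transcripts of 2 of the non-sterol branches.

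Counts assigned to genes totalled 13918321 to 17249898 per Srebp2cKO library and 14694290 to 15547538 per Srebp2WT library. Srebf2 checked the labels: it had 187, 197 and 183 counts in Srebp2cKO libraries, against 3043, 2980 and 2548 in Srebp2WT libraries. Foxp3 stood at 435 ± 27.0 CPM in Srebp2cKO and 454 ± 11.5 CPM in Srebp2WT libraries, and 6 of 6 Treg markers were present in every library. Of these, Il2ra had 12555, 13896 and 16132 counts in Srebp2cKO and 11174, 10531 and 10266 in Srebp2WT libraries. Ikzf2 went the other way, with 17373, 20463 and 23696 counts in Srebp2cKO and 25889, 23503 and 24167 in Srebp2WT libraries. CPM here and below is a count scaled to library size with TMM (trimmed mean of M values) factors, given as mean ± SD with n = 3 libraries per genotype. Among markers of other cells, Ms4a1, Csf1r, Lyz2 and Ncr1 had at most 5 counts in any library. Other members of the same lists had more, up to 1299 counts for Cybb, 769 for Cd74 and 42 for Klrb1c. The 6 B cell markers summed to 25.8 to 34.5 CPM of total counts in Srebp2cKO and 56.4 to 79.4 in Srebp2WT libraries, and the 6 myeloid markers to 37.1 to 43.0 in Srebp2cKO and 53.9 to 88.2 in Srebp2WT libraries. Members of these lists did not move alike: Cybb, most of the myeloid sum, had 421, 496 and 626 counts in Srebp2cKO and 1299, 806 and 719 in Srebp2WT libraries, whereas Cd68 had 56, 73 and 65 in Srebp2cKO and 52, 52 and 48 in Srebp2WT libraries. Itgam likewise had 35, 20 and 38 counts in Srebp2cKO and 13, 10 and 21 in Srebp2WT libraries, and Cd79a of the B cell list 14, 15 and 17 in Srebp2cKO and 8, 11 and 12 in Srebp2WT libraries. The more abundant B cell genes were lower in Srebp2cKO. Cd74 had 219, 243 and 365 counts in Srebp2cKO and 769, 547 and 503 in Srebp2WT libraries. Counts were 52, 47 and 98 against 249, 170 and 142 for Cd22, and 116, 98 and 114 against 208, 145 and 176 for Cd79b. Natural killer markers summed to 0.862 to 1.22 in Srebp2cKO and 1.87 to 3.15 in Srebp2WT libraries, and the pair of CD8 genes to 8.70 to 10.3 in Srebp2cKO and 7.01 to 7.59 in Srebp2WT libraries. The part of these marker differences in the results below was not tested. In bulk RNA, fewer cells that express a gene and less RNA per cell cannot be told apart.

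None of the 9 genes passed in Srebp2cKO against Srebp2WT Tregs. All 9 passed the filter on low counts, and 0 were called higher and 0 lower by edgeR's quasi-likelihood test at a false discovery rate of 0.05, where 6.61% of 11932 tested genes were called. No member had an unadjusted p under 0.05 in this fit either, a level that 29.1% of all tested genes reached. DESeq2 (11.8% of all tested genes) and limma-voom (6.55%) called 0 of the 9. In some other fits Nus1 and Coq9 did reach an unadjusted p under 0.05 without being called. For Nus1 it was 0.045 with DESeq2 and 0.0117 with edgeR without Srebp2cKO replicate 6. For Coq9 it was 0.0328 with edgeR when libraries were scaled by their totals alone. Their log2 fold changes ran from -0.27 to 0.27 with a median of -0.01, beside a median of -0.00015 over all tested genes; 3 were positive and 6 negative. Of all tested genes 283 were higher and 506 lower in Srebp2cKO, and when libraries were scaled by their totals without TMM, 184 genes were higher and 570 lower. That count of 789 calls in all moved to 1487, 298 and 439 without Srebp2cKO replicate 6, 7 and 8 in turn, and to 167 and 184 without Srebp2WT replicate 1 and 3, while the count of members called was 0 in each of these fits.

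**Figure D1:**
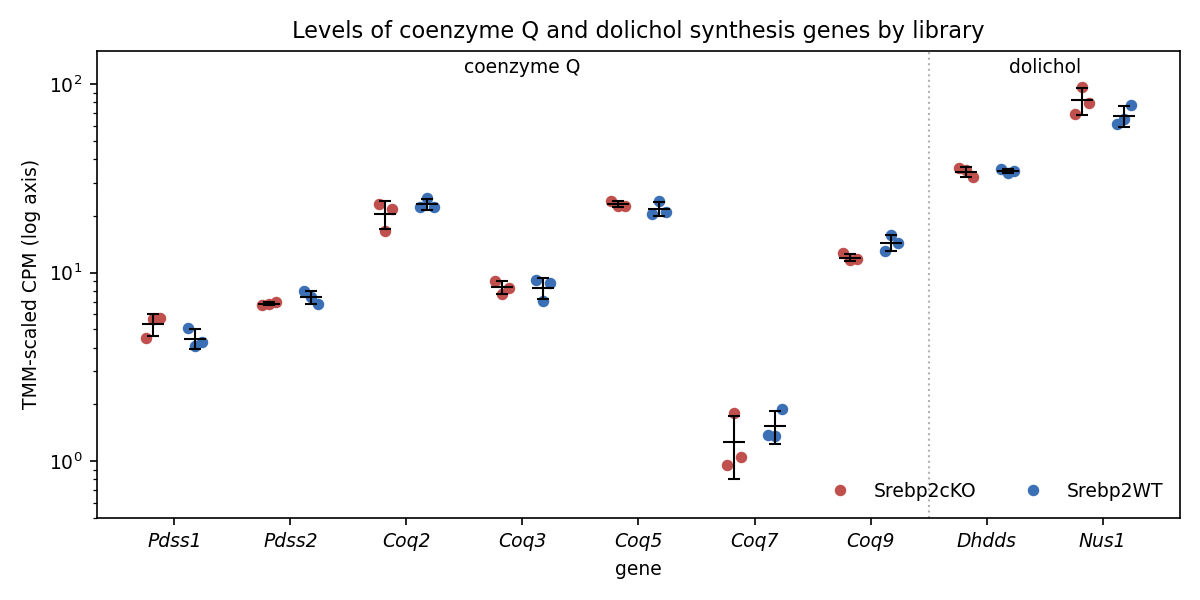
Level of each gene in TMM-scaled CPM on a log axis, with 1 point per library, Srebp2cKO left and Srebp2WT right, and a bar for the mean with whiskers of 1 SD (n = 3). The libraries of the genotypes overlap for every gene but Coq9, and levels span 0.955 CPM for Coq7 to 96.6 CPM for Nus1.

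The side chain of coenzyme Q is polymerised by a polyprenyl diphosphate synthase made of the products of Pdss1 and Pdss2. Pdss1 (chromosome 2, 22895522 to 22940266, GRCm38) had 61, 88 and 99 counts in Srebp2cKO libraries, or 4.48, 5.68 and 5.77 CPM, against 81, 63 and 63 counts, or 5.08, 4.06 and 4.26 CPM, in Srebp2WT libraries. The highest Srebp2WT library lay above the lowest Srebp2cKO library, so the genotypes overlapped. The estimate was a log2 fold change of 0.25 with a 95% interval of -0.18 to 0.69 (SE 0.20, adjusted p = 0.417, edgeR). An end of Pdss1 overlaps the exons of Abi1 on the other strand by 194 bases, and without a stated strand setting of the counting, reads there cannot be assigned to one gene. Pdss2 (chromosome 10, 43221486 to 43464882) stood at 6.76, 6.84 and 6.94 CPM in Srebp2cKO and 8.02, 7.41 and 6.84 CPM in Srebp2WT libraries. The Srebp2cKO libraries of Pdss2 lay close together, with replicate 6 just below the Srebp2WT range and replicates 7 and 8 at its low end. Its log2 fold change was -0.12 (SE 0.15, 95% interval -0.45 to 0.22, adjusted p = 0.637).

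The ratio of the CPM of these subunit genes, Pdss1 over Pdss2, was 0.663, 0.830 and 0.832 in Srebp2cKO and 0.633, 0.548 and 0.624 in Srebp2WT libraries. All Srebp2cKO ratios lay above all Srebp2WT ratios, with the nearest pair at 0.663 in Srebp2cKO and 0.633 in Srebp2WT. No p is given for this ratio, because the genes were chosen with results of these data known, and the transcripts of the pair differ in GC content (39.2% for Pdss1 and 46.9% for Pdss2), a property that fold changes followed, as described below.

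Coq2 encodes the prenyltransferase that joins the side chain to the aromatic ring. The gene (chromosome 5, 100654723 to 100675140) stood at 23.0, 16.6 and 21.8 CPM in Srebp2cKO and 22.3, 24.9 and 22.1 CPM in Srebp2WT libraries. Only Srebp2cKO replicates 7 and 8 lay below the Srebp2WT range. The estimated log2 fold change stood at -0.18, with a 95% interval of -0.47 to 0.12 (SE 0.13, adjusted p = 0.399), and without Srebp2cKO replicate 7 it was -0.05. Another gene, Gm6728, shares 7.63% of the words of 50 bases in Coq2 transcripts, so a small part of its count is uncertain.

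Coq3, Coq5 and Coq7 encode enzymes that modify the ring, an O-methyltransferase, a C-methyltransferase and a hydroxylase. Coq3 (chromosome 4, 21879673 to 21912162) had 123, 119 and 142 counts in Srebp2cKO and 145, 110 and 130 counts in Srebp2WT libraries, in overlapping ranges. It averaged 8.33 ± 0.680 CPM in Srebp2cKO and 8.32 ± 1.08 CPM in Srebp2WT libraries, a log2 fold change of -0.00042 (SE 0.16, 95% interval -0.35 to 0.35, adjusted p = 0.999). Coq5 (chromosome 5, 115279666 to 115296972) stood at 24.1, 22.5 and 22.6 CPM in Srebp2cKO and 20.4, 23.8 and 20.98 CPM in Srebp2WT libraries. Apart from Srebp2WT replicate 3, the Srebp2WT libraries of Coq5 lay below those of Srebp2cKO, and its log2 fold change of 0.08 had a 95% interval of -0.14 to 0.31 (SE 0.10, adjusted p = 0.611). Coq7 (chromosome 7, 118509659 to 118533356) was the least abundant gene of the group, with 13, 28 and 18 counts in Srebp2cKO and 22, 21 and 28 counts in Srebp2WT libraries. Counting error alone, as an exact Poisson 95% interval, spans 6.92 to 22.2 for the lowest of these counts and 18.6 to 40.5 for the highest, and each interval covers counting error only. The interval of its log2 fold change of -0.27 was the widest of the 9, from -1.03 to 0.49 (SE 0.34, adjusted p = 0.625). With each library left out in turn, the estimate ran from -0.62, without Srebp2cKO replicate 7, to -0.10, without Srebp2WT replicate 5.

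Coq9 encodes a lipid-binding partner of the Coq7 hydroxylase. It was the 1 member whose libraries did not overlap between the genotypes, at 12.6, 11.6 and 11.8 CPM in Srebp2cKO and 13.0, 15.8 and 14.4 CPM in Srebp2WT libraries (chromosome 8, 94838321 to 94854895). Separation of this kind was common, since 31.5% of all tested genes showed it in one direction or the other, 15.5% with Srebp2cKO lower and 16.0% with Srebp2cKO higher. For Coq9 the fold change was -0.26 on the log2 scale, with a 95% interval of -0.54 to 0.01 (SE 0.12, unadjusted p = 0.0576, adjusted p = 0.185, edgeR). The end of Coq9 overlaps exons of Ciapin1 on the other strand by 38 bases.

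Dolichol synthesis uses a cis-prenyltransferase made of the catalytic subunit encoded by Dhdds and the partner subunit encoded by Nus1, also known as the Nogo-B receptor. Their promoter windows, 250 bases before to 50 after the annotated start (RefSeq, GRCm38.p6), are shown beside that of Hmgcs1, an enzyme gene of the mevalonate pathway that fell in Srebp2cKO, because SREBP2 is a DNA-binding factor. Capitals mark matches, on either strand, to the letters TCACNCCAC (a form of the SREBP site), CACGTG (the E-box) and CCAAT (bound by NF-Y, a known partner of SREBPs), and no matches overlap within a window. They lie at chr4:134000833-134001132 on the minus strand for Dhdds, chr10:52417297-52417596 on the plus strand for Nus1 and chr13:119690101-119690400 on the plus strand for Hmgcs1, and are printed 5′ to 3′.
Dhdds: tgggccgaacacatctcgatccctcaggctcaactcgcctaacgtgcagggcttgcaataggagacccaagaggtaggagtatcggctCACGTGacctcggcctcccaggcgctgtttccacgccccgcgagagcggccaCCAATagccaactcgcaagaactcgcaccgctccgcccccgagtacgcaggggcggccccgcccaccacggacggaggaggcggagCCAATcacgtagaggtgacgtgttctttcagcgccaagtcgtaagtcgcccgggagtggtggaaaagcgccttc
Nus1: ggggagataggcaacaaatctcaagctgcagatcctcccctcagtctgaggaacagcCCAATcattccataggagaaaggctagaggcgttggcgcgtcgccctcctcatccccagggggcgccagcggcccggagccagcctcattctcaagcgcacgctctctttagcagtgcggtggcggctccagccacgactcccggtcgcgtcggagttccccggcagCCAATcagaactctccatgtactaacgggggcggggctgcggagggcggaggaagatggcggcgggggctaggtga
Hmgcs1: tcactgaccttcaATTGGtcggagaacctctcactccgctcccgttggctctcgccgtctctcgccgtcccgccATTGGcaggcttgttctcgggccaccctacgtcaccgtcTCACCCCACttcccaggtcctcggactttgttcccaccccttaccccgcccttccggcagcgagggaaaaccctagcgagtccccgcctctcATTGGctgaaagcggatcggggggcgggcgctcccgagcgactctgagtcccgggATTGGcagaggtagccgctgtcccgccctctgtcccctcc

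In these windows TCACNCCAC matched 1 time in Hmgcs1 and not in Dhdds or Nus1, CACGTG matched 1 time in Dhdds, and CCAAT matched 2 times in Dhdds, 2 times in Nus1 and 4 times in Hmgcs1. Of the 9 members 8, all but Coq5, matched the RefSeq table by symbol, with 9 windows in all. None of these 9 windows held TCACNCCAC, which 1.24% of all 32851 promoter windows held. CACGTG was in 1 of the 9 (7.15% of all windows) and CCAAT in 3, those of Coq7, Dhdds and Nus1 (37.4% of all windows). These matches describe the letters of the windows and nothing about binding.

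Dhdds (chromosome 4, 133969028 to 134000918) had the narrowest interval of the 9 genes. Its libraries held 486, 539 and 550 counts, or 35.7, 34.8 and 32.1 CPM, in Srebp2cKO and 563, 521 and 510 counts, or 35.3, 33.6 and 34.5 CPM, in Srebp2WT. The Srebp2WT libraries lay inside the Srebp2cKO range, and its log2 fold change of -0.01 had a 95% interval of -0.20 to 0.18 (SE 0.09, adjusted p = 0.938). Nus1 (chromosome 10, 52417547 to 52440183) was the most abundant member, with 949, 1497 and 1355 counts, or 69.7, 96.6 and 79.0 CPM, in Srebp2cKO and 973, 1009 and 1140 counts, or 61.0, 65.0 and 77.2 CPM, in Srebp2WT libraries. Srebp2cKO replicates 7 and 8 lay above the Srebp2WT range and replicate 6 inside it. For Nus1 the fold change was 0.27 on the log2 scale, with a 95% interval of -0.01 to 0.55 (SE 0.13, unadjusted p = 0.0560, adjusted p = 0.183, edgeR). With each library left out in turn its estimate ran from 0.13, without Srebp2cKO replicate 7, to 0.38, and its adjusted p was lowest at 0.0661, without Srebp2cKO replicate 6.

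The ratio of Nus1 to Dhdds in CPM was 1.95, 2.78 and 2.46 in Srebp2cKO and 1.73, 1.94 and 2.24 in Srebp2WT libraries, so the genotypes overlapped. The 3 tested genes whose pattern over the 6 libraries lay nearest to that of Nus1, the member with the largest absolute log2 fold change, were Rsbn1l, Psmc6 (an ATPase subunit of the proteasome) and Usp1 (a deubiquitinase). The root mean square distance between centred log2 CPM profiles was 0.0217, 0.0221 and 0.0224 for these genes, and none of the 3 was called (adjusted p = 0.124, 0.158 and 0.168, edgeR).

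Levels of different genes were compared per kilobase of exon (the union of the exons in GENCODE M21). In Srebp2cKO Tregs Nus1 was highest at 16.8 ± 2.81 CPM per kilobase, followed by Dhdds at 9.03, Coq2 at 7.80, Coq5 at 7.60, Coq9 at 3.93, Coq3 at 2.78, Pdss1 at 1.25, Pdss2 at 1.15 and Coq7 at 0.197. In this order the libraries of Dhdds and Coq2, Coq2 and Coq5, and Pdss1 and Pdss2 overlapped, and those of all other neighbours did not. In Srebp2WT Tregs the order was the same except that Pdss2 (1.25) stood above Pdss1 (1.05), a pair whose libraries overlapped there too, as did Dhdds (9.11) and Coq2 (8.80), while Coq2 and Coq5 (7.16) did not. The choice of length matters for this order: per kilobase of the longest transcript, Coq2 had a higher mean than Dhdds in both genotypes (11.7 and 10.6 CPM per kilobase in Srebp2cKO, 13.2 and 10.7 in Srebp2WT) and Pdss1 a higher one than Pdss2 in both. On that scale the libraries of Coq2 (9.51 to 13.2) and Dhdds (9.96 to 11.1) overlapped in Srebp2cKO, where Coq5 (11.3) also had a higher mean than Dhdds, and did not overlap in Srebp2WT.

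In the same libraries, 5 of 9 genes that supply the isoprenoid precursors, from acetyl-CoA to farnesyl and geranylgeranyl pyrophosphate, fell in Srebp2cKO and 0 rose (median log2 fold change -0.58, against -0.00015 over all genes, of which 4.24% were called lower). Idi1, the isomerase that makes dimethylallyl pyrophosphate, stood at 1.25, 1.81 and 2.74 CPM in Srebp2cKO and 5.20, 7.15 and 6.43 CPM in Srebp2WT libraries. It fell to 1.93 ± 0.754 CPM in Srebp2cKO, against 6.26 ± 0.986 CPM in Srebp2WT (log2 fold change -1.67, SE 0.28, adjusted p = 0.0101), a call that was lost without Srebp2WT replicate 3 (adjusted p = 0.0530). Fdps, which makes farnesyl pyrophosphate, the precursor that the products of Dhdds and Pdss1 extend, stood at 7.12, 6.97 and 7.75 CPM in Srebp2cKO and 13.8, 12.95 and 12.7 CPM in Srebp2WT libraries. These ranges were well separated, and Fdps fell to 7.28 ± 0.416 CPM in Srebp2cKO, against 13.2 ± 0.559 CPM in Srebp2WT (log2 fold change -0.85, 95% interval -1.14 to -0.56, adjusted p = 0.00638). For Ggps1, which makes geranylgeranyl pyrophosphate and was named after its values were seen, as was Mvk, the log2 fold change was 0.27 (adjusted p = 0.182, not called). Hmgcs1, which makes HMG-CoA, stood at 26.7, 34.8 and 28.7 CPM in Srebp2cKO and 38.9, 43.7 and 42.8 CPM in Srebp2WT libraries. Hmgcs1 fell by 0.47 and Mvk, mevalonate kinase, by 0.82 on the log2 scale (adjusted p = 0.0344 and 0.0403). Each of these 2 calls was lost in 4 of 6 fits that left out 1 library, without Srebp2cKO replicate 8 and without Srebp2WT replicates 1 and 3 for both, without Srebp2WT replicate 5 for Hmgcs1 and without Srebp2cKO replicate 7 for Mvk. With the GC correction described below, the Mvk call was lost (log2 fold change -0.65, adjusted p = 0.0678), also in all 6 fits that left out a library besides. Hmgcs1 and Idi1 were called with it (log2 fold change -0.62 and -1.85, edgeR adjusted p = 0.00454 and 0.0049), also in all 6 such fits. In all, 4 of the 9 supply genes were called with the correction, beside 5.51% of all tested genes.

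Fdft1, squalene synthase, takes farnesyl pyrophosphate into the sterol branch. Its libraries stood at 15.1, 14.8 and 16.3 CPM in Srebp2cKO and 26.6, 26.2 and 28.3 CPM in Srebp2WT, far apart. It fell to 15.4 ± 0.787 CPM in Srebp2cKO, against 27.1 ± 1.10 CPM in Srebp2WT (log2 fold change -0.81, 95% interval -1.03 to -0.59, adjusted p = 0.00189). The interval of Dhdds ended at -0.20 on its lower side, and those of Pdss1, Coq5, Coq3, Pdss2, Coq2 and Nus1 at -0.18, -0.14, -0.35, -0.45, -0.47 and -0.01, all above the upper bound of -0.59 for Fdft1, as was the lower bound of -0.54 for Coq9. That of Coq7 reached -1.03. In CPM, the ratio of Fdft1 to Dhdds was 0.424, 0.427 and 0.509 in Srebp2cKO and 0.755, 0.781 and 0.820 in Srebp2WT libraries, and that of Fdft1 to Pdss1 was 3.38, 2.61 and 2.83 in Srebp2cKO and 5.25, 6.46 and 6.63 in Srebp2WT libraries. Both ratios were lower in every Srebp2cKO library than in any Srebp2WT library. Fdft1 was named because it was called lower, so these ratios largely restate its fall and are no separate result. No p is given for them. The transcripts of Fdft1 and Pdss1 differ in GC content (51.8% and 39.2%), a property that fold changes followed, as described below. With the GC correction, the log2 fold change was -0.76 for Fdft1 (edgeR adjusted p = 0.00171) and 0.02 for Pdss1. The difference in fold change between these genes was not itself tested.

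**Figure D2:**
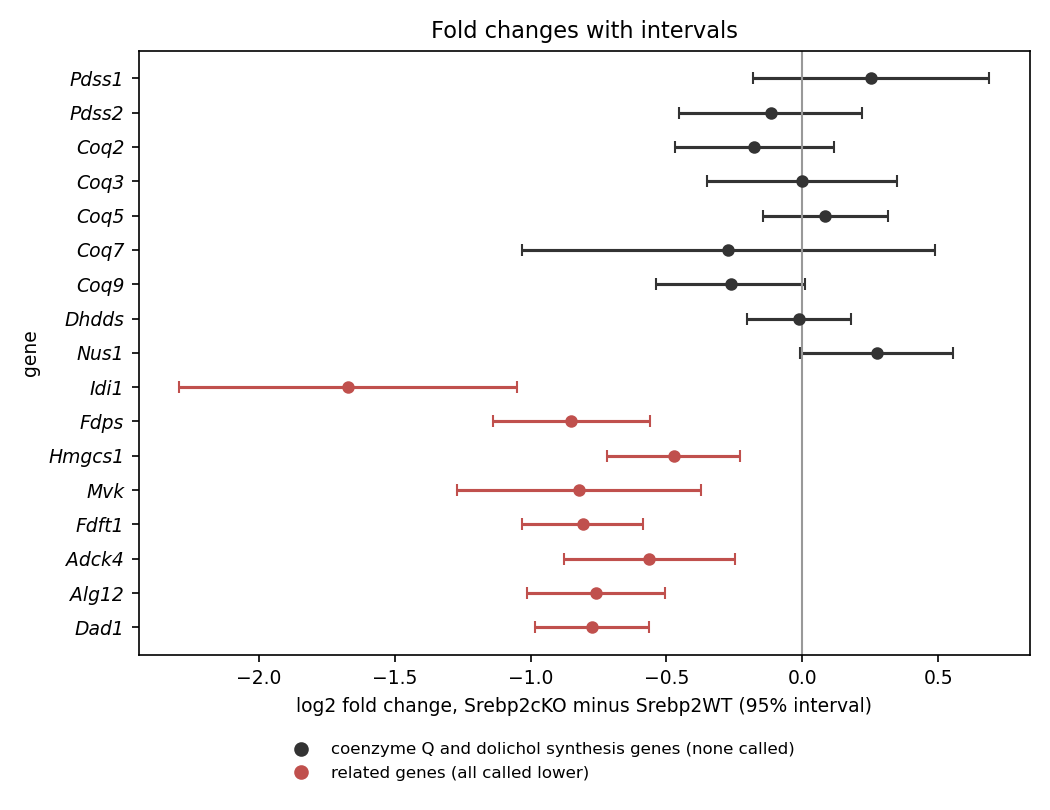
Log2 fold change, Srebp2cKO minus Srebp2WT, with its 95% interval from edgeR, for the 9 coenzyme Q and dolichol synthesis genes (dark) and for 8 related genes that were called lower (red). The intervals of all 9 dark genes include 0, and those of the red genes lie below it.

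Fold changes in these libraries followed the GC content of transcripts. Of 10 deciles of tested genes by GC content, the lowest had a median log2 fold change of 0.23, with 84 genes called higher and 9 lower, and the highest a median of -0.26, with 4 higher and 116 lower. Pdss1 and Nus1, the members with the lowest transcript GC (39.2% and 42.3%), had the highest log2 fold changes, and Coq2 and Coq9, those with the highest GC (54.3% and 55.6%), had log2 fold changes of -0.18 and -0.26. After the trend on GC was removed from each library, the log2 fold change was 0.02 for Pdss1, 0.11 for Nus1, -0.06 for Coq2 and -0.11 for Coq9 (adjusted p = 0.967, 0.531, 0.781 and 0.609). Coq3, Pdss2 and Coq5 moved away from 0, to -0.12, -0.19 and 0.13, while Dhdds stood at 0.03 and Coq7 at -0.27. With this correction 0 of the 9 genes were called, beside 5.51% of all tested genes.

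**Figure D3:**
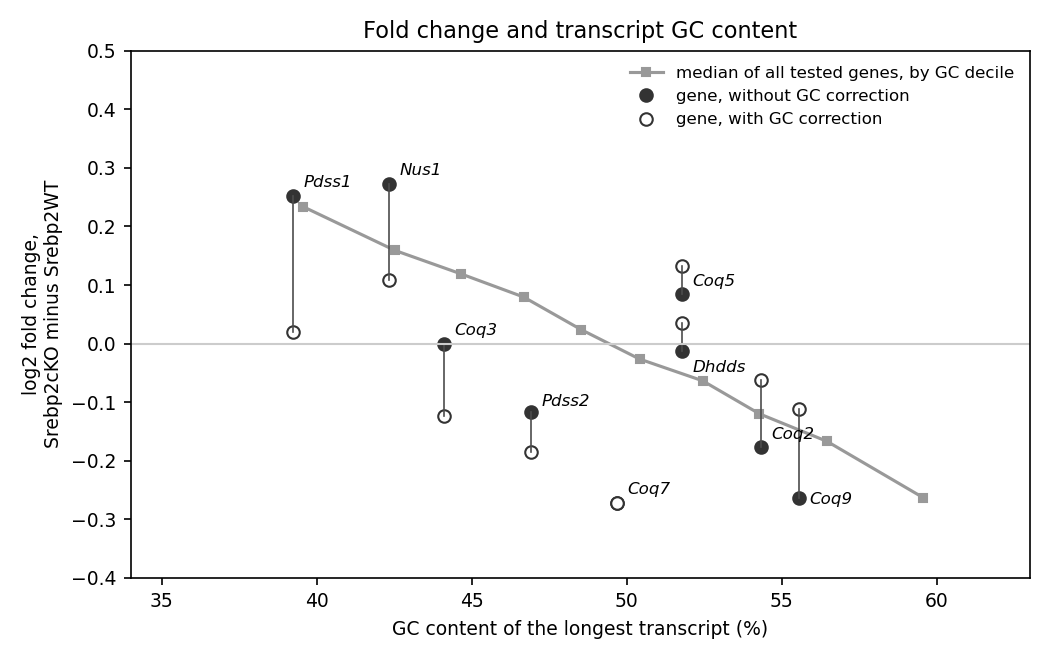
Log2 fold change, Srebp2cKO minus Srebp2WT, against the GC content of the longest transcript in percent, for the 9 genes without (filled) and with (open) the GC correction, joined by a line, and the median of all tested genes in each decile of GC content (grey). Pdss1 (0.25) and Nus1 (0.27) sit at the left end and move to 0.02 and 0.11 with the correction.

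Of 7 further genes of coenzyme Q synthesis and function, 6 could be tested, and 1 fell and 0 rose in Srebp2cKO, beside 4.24% and 2.37% of all genes, with a median log2 fold change of -0.39. Adck4 (Coq8b), one of a pair of atypical kinase-like proteins of the coenzyme Q synthesis complex, stood at 13.2, 9.74 and 11.5 CPM in Srebp2cKO and 17.7, 18.1 and 15.1 CPM in Srebp2WT libraries. It fell to 11.5 ± 1.74 CPM in Srebp2cKO, against 16.96 ± 1.63 CPM in Srebp2WT (log2 fold change -0.56, SE 0.14, edgeR adjusted p = 0.0434). That call was lost without any 1 of Srebp2cKO replicates 7 and 8 and Srebp2WT replicates 1 and 3, with adjusted p up to 0.157. It passed with the GC correction (adjusted p = 0.0385). Under that correction it was again lost without any 1 of the same replicates (edgeR adjusted p = 0.11, 0.0773, 0.117 and 0.134 in turn). Of the 6, 5 had an unadjusted p under 0.05, beside 29.1% of all genes, and DESeq2 called 3 and limma-voom 1, beside 11.8% and 6.55%. The other genes described here were named after their values were seen. Adck3 (Coq8a), the paralog of Adck4, stood at 12.9, 10.6 and 13.9 CPM in Srebp2cKO and 20.4, 18.0 and 14.8 CPM in Srebp2WT libraries (log2 fold change -0.51, adjusted p = 0.0704). Coq10b, whose yeast counterpart binds coenzyme Q, stood at 17.9, 18.6 and 20.6 CPM in Srebp2cKO and 13.7, 12.1 and 15.9 CPM in Srebp2WT libraries (log2 fold change 0.46, adjusted p = 0.0602). Coq4, a member of the synthesis complex, held 20, 25 and 22 counts in Srebp2cKO and 39, 34 and 37 in Srebp2WT libraries (log2 fold change -0.71, adjusted p = 0.112). For each of these genes the libraries of the genotypes did not overlap, as was so for 31.5% of all tested genes in one direction or the other. Libraries of Coq10a did not overlap either, and those of Coq6 did. With the GC correction Adck3, Coq10b and Coq4 were not called (edgeR adjusted p = 0.104, 0.179 and 0.167).

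Beyond the 9 members, 21 genes that complete, activate or recycle dolichol or build the lipid-linked sugar chain were tested. Of these 1 fell and 0 rose (median log2 fold change -0.13), near the 4.24% of all tested genes that were called lower and the 2.37% called higher. Alg12, a mannosyltransferase of that chain, stood at 14.8, 12.7 and 13.9 CPM in Srebp2cKO and 25.1, 23.8 and 21.3 CPM in Srebp2WT libraries. It fell to 13.8 ± 1.07 CPM in Srebp2cKO, against 23.4 ± 1.94 CPM in Srebp2WT (log2 fold change -0.76, SE 0.11, adjusted p = 0.00601), and was called in all 21 alternative fits. It lies on chromosome 15 from 88805244 to 88819318, the chromosome of Srebf2, and 1 of 24 other tested genes within 1 Mb on each side of it was called. Of 12 genes of the oligosaccharyltransferase, the enzyme that moves the finished chain onto proteins, 1 fell and 0 rose (median log2 fold change -0.06), beside the same 4.24% and 2.37% of all tested genes. Single calls in lists of this size are not a result about the lists. This was Dad1, at 38.8, 34.7 and 35.5 CPM in Srebp2cKO and 59.7, 68.7 and 58.0 CPM in Srebp2WT libraries (log2 fold change -0.77, SE 0.09, adjusted p = 0.00168), also called in all 21 alternative fits. Around Dad1 (chromosome 14, 54235479 to 54254104), 11 of 25 other tested genes within 1 Mb were called, all 11 of them lower in Srebp2cKO. Within the same distance of the 9 members, where 5 to 39 other genes were tested, 0 to 4 neighbouring genes were called, among them 4 of 36 at Dhdds, 1 of 5 at Nus1 and 1 of 6 at Pdss1, beside 6.61% of all tested genes.

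Proteins that use coenzyme Q include dehydrogenases that reduce it and the respiratory complex that oxidises it. The list taken here held no subunit of respiratory complex I. Of the 14 listed genes 0 were called by edgeR, 0 by DESeq2 and 0 by limma-voom, beside 6.61%, 11.8% and 6.55% of all tested genes. An unadjusted p under 0.05 was found for 3, beside 29.1% of all tested genes (median log2 fold change 0.02). The smallest p belonged to Aifm2, also known as Fsp1, an oxidoreductase that reduces coenzyme Q outside mitochondria, with 10, 13 and 5 counts in Srebp2cKO and 27, 27 and 12 in Srebp2WT libraries (log2 fold change -1.21, 95% interval -2.22 to -0.19, edgeR adjusted p = 0.120).

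**Figure D4:**
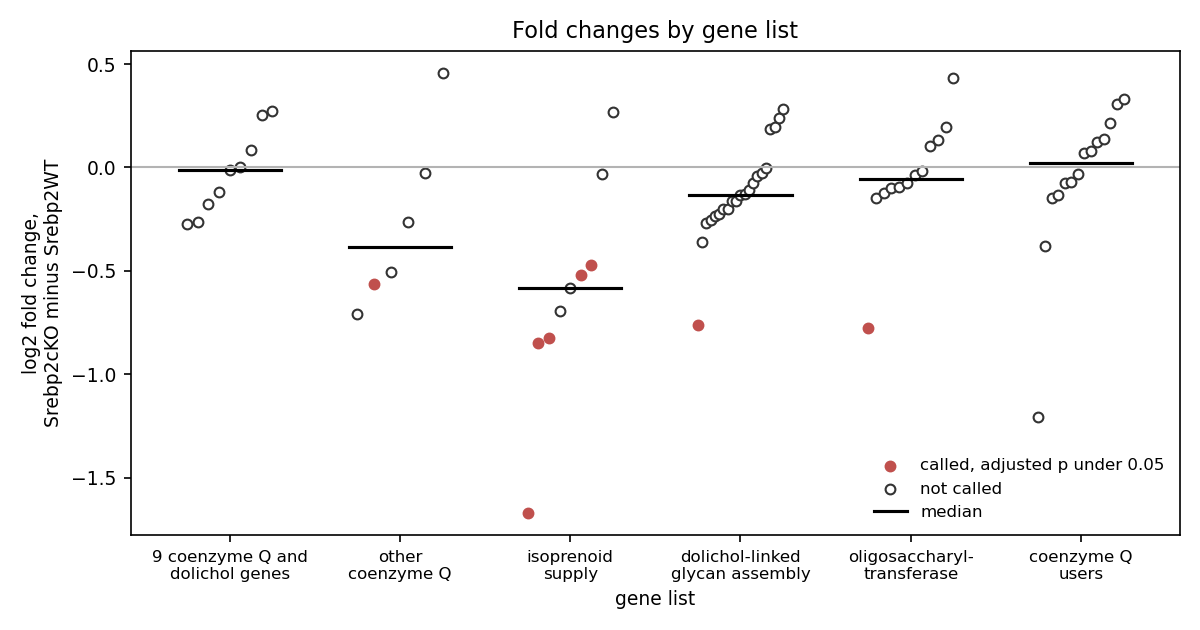
Log2 fold change, Srebp2cKO minus Srebp2WT, of each tested gene in 6 lists, spread sideways by rank within a list, with called genes filled and the median as a bar. The 9 coenzyme Q and dolichol genes lie between -0.27 and 0.27 with none called, and the isoprenoid supply list holds 5 called genes, all below 0.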

How the data were processed

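Per the labels' protocols, total RNA was isolated with Qiagen RNeasy and libraries were prepared with KAPA RNA HyperPrep and RiboErase. Raw counts per gene symbol were deposited by the authors, 1 column for each library. HISAT2 2.2.1, Cell Ranger and the build mm10 are named, without their roles, in the submitters' processing notes. Counting tool, annotation and strand setting were not given in the sources used here.

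Columns were matched to samples by title. The filter filterByExpr kept 11932 of 24421 genes. With TMM scaling, edgeR 4.0.16 (quasi-likelihood F test, R 4.3.3) compared the genotypes, Srebp2cKO minus Srebp2WT, with p-values adjusted by Benjamini-Hochberg over all tested genes. The standard error was the log2 fold change over the square root of F. Replicates of a genotype differed by more than counting noise (chi-square over degrees of freedom 7.01 to 36.1). The fit was tested on simulated data.

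Alternatives were other scalings, DESeq2 1.42.0, limma-voom (limma 3.58.1), robust dispersion, other filters, a false discovery rate of 0.1, removal of a loess trend on transcript GC (span 0.3) and leaving out each library. Positions, lengths and GC came from GENCODE M21 (GRCm38; 23376 genes by symbol and 651 by synonym), promoters from RefSeq. Named genes were all members, Srebf2, Foxp3, called genes of each related list (at most 4, by smallest p; where none passed, the smallest p) and the 3 genes nearest in pattern to 1 member. A gene named by that rule is not reported here. Members and lists were chosen with earlier results of these data known.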

Additional observations from a re-analysis of the deposited data

How the results depend on the processing

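The count of members called was 0 in all alternatives run, and no fit called any of the 9 genes. The count of all genes called was 789, against 1404 with DESeq2, 1205 with no filter and 1893 at a false discovery rate of 0.1; it ran from 167 to 1487 with each library left out in turn and from 250 to 763 when the GC correction was added to that (382 and 313 without Srebp2cKO replicates 6 and 7, 289 and 250 without Srebp2WT replicates 1 and 3). Called genes of the related lists numbered 9, against 13 with DESeq2, 13 with no filter and 14 at a false discovery rate of 0.1. They numbered 5 to 11 with each library left out in turn. The count of 14 follows from the looser threshold; the cause of the other shifts was not tested. Estimates near 0 changed sign without being called. Coq3 had log2 fold changes of 0.000622 with RLE scaling, 0.000622 with DESeq2 and 0.00227 with limma-voom, and -0.10 to 0.07 with libraries left out. Dhdds had 0.0349 with the GC correction, -0.0427 to 0.0328 with libraries left out, and 0.0277, 0.00468, 0.0775, 0.0495, 0.00744 and 0.047 with both (without Srebp2cKO replicates 6, 7 and 8 and Srebp2WT replicates 1, 3 and 5 in turn). Foxp3 had 0.0729 with the GC correction and 0.0694, 0.0545, 0.0979, 0.0422, 0.0623 and 0.111 when the same libraries were also left out. Under the GC correction Coq2 had 0.0363 without Srebp2cKO replicate 7, and Pdss1 had -0.0491 without Srebp2cKO replicate 8 and -0.0161 and -0.0604 without Srebp2WT replicates 3 and 5. No paired analysis was possible because the genotypes share no replicate numbers. Depth limits Coq7 most: at its mean count, counting error alone is 21.5% of the level, against 2.94% for Nus1.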

Other observations

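Genes of mitochondrial content gave no call. Of 10 such genes, 0 passed in edgeR, DESeq2 or limma-voom, beside 6.61%, 11.8% and 6.55% of all tested genes. An unadjusted p under 0.05 was found for 1, beside 29.1% of all tested genes (median log2 fold change 0.03). That gene was Vdac1, the outer membrane channel, at 81.7 ± 4.58 CPM in Srebp2cKO and 70.3 ± 4.60 CPM in Srebp2WT libraries (n = 3 each; log2 fold change 0.22, edgeR adjusted p = 0.120). Of 7 genes that use prenyl pyrophosphates for other products, such as haem A, prenylated proteins and modified tRNA, Fdft1 was the 1 called and fell, beside 4.24% of all tested genes that were called lower. Rabggtb, a subunit of the enzyme that prenylates Rab proteins, had the next smallest p (named after its values were seen), at 41.6 ± 4.03 CPM in Srebp2cKO and 35.6 ± 2.45 CPM in Srebp2WT libraries (n = 3 each; log2 fold change 0.22, edgeR adjusted p = 0.163).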
